A study of Mus musculus with 37 samples.

Results

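The subcortical maternal complex is a protein assembly that lies under the cell cortex of the mouse oocyte and of the cleaving embryo. The 9 genes described were chosen by symbol. They are Nlrp5, Ooep, Tle6 and Khdc3, which encode its core, Padi6, Nlrp2, Nlrp4f and Zbed3, which encode proteins that join it or the cytoplasmic lattices, and Nlrp14, a related maternal NLRP gene. All 9 were found among the 55401 genes listed in each of the deposited tables of FPKM, a level that divides sequenced fragments by gene length and by the library total. The question was how fast their RNA disappears over 5 stages from the fully grown oocyte (FGO) through the mature MII egg (MII), the late 1-cell embryo (L1C) and the early 2-cell embryo (E2C) to the late 2-cell embryo (L2C), with and without maternal Bap1. Bap1 encodes a deubiquitinase that removes ubiquitin from histone H2A.

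Both groups of females carried floxed alleles of Bap1 on both chromosomes (Bap1 flox/flox). In the knockout group, iCre recombinase under the oocyte promoter of Gdf9 (Gdf9-iCre) deleted Bap1 in the oocytes, and the control females had no iCre. Embryos of both groups came from wild-type sperm, of B6 males at the early stages and of PWK males at embryonic day 6.5, so that knockout embryos lacked Bap1 of maternal origin and received an intact paternal allele. FGO, MII, L1C and L2C each had 2 control and 3 knockout total RNA libraries, and E2C had 3 of each. At embryonic day 6.5, poly(A) libraries covered epiblast (EPI) and visceral endoderm (VE) with 2 control and 2 knockout libraries each, and extraembryonic ectoderm (EXE) with 1 control and 2 knockout libraries. Ages of the females and the number of oocytes or embryos in a library are not given in the sources used here, nor is it stated that replicates came from separate females. The p-values therefore measure the spread between these libraries, which may be technical.

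Oocytes accumulate the RNA of these genes while they grow, and much maternal RNA is degraded in waves at meiotic maturation, after fertilization and when the genome of the embryo becomes active. The proteins outlast their RNA, and embryos of mothers without Nlrp5, Ooep, Tle6 or Padi6 arrest in early cleavage. RNA levels therefore say nothing direct about the amount of complex. Transcription of oocyte genes is known to depend on E-box factors such as FIGLA, and translation in the maturing oocyte on short uridine-rich elements near the 3′ end, cytoplasmic polyadenylation elements.

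The promoters of Nlrp5, Ooep and Nlrp4f are shown because the RNA of these genes, as that of Nlrp14, was higher in knockout than in control late 2-cell embryos. Each sequence is from RefSeq (GRCm38.p6) and runs 5′ to 3′ in the direction of transcription from 250 bases before to 50 bases after the start site, with matches to the E-box CANNTG in capitals. The Nlrp5 window is chr7:23385639-23385938 on the plus strand, that of Ooep is chr9:78378539-78378838 on the minus strand, and that of Nlrp4f is chr13:65205667-65205966 on the minus strand. The RefSeq start site equals the GENCODE M21 start of the gene for Nlrp5. It lies 137 bases inside that start for Ooep and 261 bases inside for Nlrp4f. The whole Nlrp4f window is thus within the GENCODE gene, and positions hold for the RefSeq start site only.
Nlrp5: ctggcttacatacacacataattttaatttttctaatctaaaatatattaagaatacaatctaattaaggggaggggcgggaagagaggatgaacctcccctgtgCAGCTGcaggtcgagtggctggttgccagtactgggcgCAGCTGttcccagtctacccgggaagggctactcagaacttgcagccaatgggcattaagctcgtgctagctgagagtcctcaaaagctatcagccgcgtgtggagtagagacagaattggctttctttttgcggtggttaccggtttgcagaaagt
Ooep: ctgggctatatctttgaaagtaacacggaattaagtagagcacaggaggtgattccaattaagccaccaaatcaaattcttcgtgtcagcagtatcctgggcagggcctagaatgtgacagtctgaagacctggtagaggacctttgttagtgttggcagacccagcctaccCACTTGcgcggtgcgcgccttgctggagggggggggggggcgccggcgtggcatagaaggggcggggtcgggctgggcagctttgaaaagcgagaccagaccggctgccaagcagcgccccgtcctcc
Nlrp4f: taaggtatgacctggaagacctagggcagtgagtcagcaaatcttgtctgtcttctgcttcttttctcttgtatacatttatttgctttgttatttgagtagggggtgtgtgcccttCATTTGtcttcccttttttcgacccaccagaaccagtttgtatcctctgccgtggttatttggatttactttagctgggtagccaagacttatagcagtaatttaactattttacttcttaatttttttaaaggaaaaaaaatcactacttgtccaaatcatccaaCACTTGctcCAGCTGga
In Nlrp5 both E-boxes read CAGCTG, at -145 and -107 from the start site. Ooep has 1 E-box, at -78, and Nlrp4f has 3, of which 1 at 42 reads CAGCTG. RefSeq promoters were matched for 8 of the 9 genes, all but Nlrp14. For Tle6 and Khdc3 the RefSeq start site also lay away from the GENCODE start, by 173 and 562 bases. Of these 8, 7 hold at least 1 CANNTG on either strand, against 72.3% of 32851 promoters of the same length. CAGCTG is in 3 of the 8, against 16.3% of all promoters, CACCTG in 3 against 20.2%, and CACGTG in Tle6 alone, at 2 places, against 7.15%. These 3 motifs are special cases of the E-box, so their matches overlap with it. TAATTG is in the Ooep and Padi6 promoters (8% of all promoters), TAATTA in that of Nlrp5 (5.29%), and TATAAA in none of the 8 (13.6%). A match describes the letters of the window and no more.

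Near the 3′ end, 2 of the 9 transcripts hold the letters of a cytoplasmic polyadenylation element, TTTTAT or TTTTAAT, in their last 100 bases, against 16.7% of 21781 protein-coding transcripts. They are shown because Nlrp4f and Zbed3 were also the 2 genes whose mean in E2C was above that in FGO in both genotypes. In capitals is the element together with the polyadenylation hexamer (ATTAAA or AATAAA), which it adjoins in Nlrp4f and overlaps in Zbed3.
Nlrp4f: TTTTATATTAAA
Zbed3: TTTTAATAAA
In the GENCODE M21 transcript of Nlrp4f this site runs from 29 to 18 bases before the end, and in that of Zbed3 from 25 to 16. The Zbed3 transcript holds another element, not shown, that begins 14 bases before the end. One of the hexamers AATAAA and ATTAAA is in 7 of the 9 transcripts and in 75.0% of all.

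Positions are those of GENCODE M21 (GRCm38, the assembly that mm10 names), which has each of the 9 genes under the version of the Ensembl identifier that the tables use. Nlrp5 (ENSMUSG00000015721.18) lies on chromosome 7 from 23385889 to 23441922, Nlrp2 (ENSMUSG00000035177.8) on chromosome 7 from 5298547 to 5351035, and Nlrp14 (ENSMUSG00000016626.10) on chromosome 7 from 107166990 to 107198102. Ooep (ENSMUSG00000032346.7) lies on chromosome 9 from 78376109 to 78378725, and Khdc3 (ENSMUSG00000092622.8) on chromosome 9 from 73101836 to 73104438. On chromosome 13 are Nlrp4f (ENSMUSG00000032999.10), from 65177111 to 65205977, and Zbed3 (ENSMUSG00000041995.8), from 95323612 to 95337841. Tle6 (ENSMUSG00000034758.12) is on chromosome 10 from 81590904 to 81601073, and Padi6 (ENSMUSG00000040935.12) on chromosome 4 from 140727355 to 140742643. Values of Khdc3 are uncertain, since 34.1% of its exonic words of 50 bases recur in Gm20509, a model that overlaps it. The share of words found in other genes was 6.55% for Nlrp5, 5.95% for Nlrp4f (Nlrp4g among them), 2.39% for Nlrp2, 1.39% for Ooep and 0.71% for Tle6, and 0 for Padi6, Nlrp14 and Zbed3. Zbed3 spans the small nucleolar RNA gene Snora47, and Nlrp2 overlaps 2 models on the opposite strand, Gm18757 and Gm5065, so reads of these could be counted with it if strand was not used.

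Some facts of all libraries bear on what follows. Bap1 was lower in every knockout than in every control library at each of the 5 stages, for example 3.76 to 4.98 FPKM against 16.3 to 29.2 FPKM in FGO and 9.69 to 11.7 FPKM against 20.9 to 24.4 FPKM in L2C. Oocyte markers (Gdf9, Bmp15, Zp1, Zp2, Zp3, Ddx4 and Figla) summed to between 2295 and 2720 FPKM in FGO libraries. Among 9 cumulus and granulosa cell genes, only 2 reached 1 FPKM in FGO, and Nr5a2 held up to 17.8 of the 14.6 to 25.6 FPKM that they summed to. The number of reads behind an FPKM value is unknown, so no counting error is given. In bulk libraries, fewer cells and less RNA per cell cannot be told apart, and FPKM is relative to the total of its library.

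In control FGO the 9 genes spanned a wide range of levels. Zbed3, which encodes a BED zinc finger protein needed to position the spindle, measured 2581 and 2682 FPKM. Next came Padi6, a member of the peptidylarginine deiminase family required for the lattices, at 683 and 723 FPKM, and Nlrp14, at 659 and 716 FPKM, and these 2 overlapped. Tle6, a Groucho-family protein of the core, stood at 436 and 441 FPKM, the core scaffold Nlrp5 (MATER) at 423 and 424 FPKM and Nlrp4f at 402 and 415 FPKM. Tle6 lay above Nlrp5 and Nlrp5 above Nlrp4f in both libraries, by less than 10%. Below them lay the KH-domain genes of the core, Khdc3 (FILIA) at 192 and 234 FPKM and Ooep (FLOPED) at 135 and 143 FPKM, and then Nlrp2 at 77.7 and 78.6 FPKM. Together the 9 held 1.80% to 1.91% of the summed FPKM in control FGO, 1.53% to 1.75% in knockout FGO, 2.03% to 2.23% in control E2C, 0.43% to 0.47% in control L2C and 0.67% to 0.77% in knockout L2C. A single gene model, Gm23935, took a changing share of that sum, 7.56% to 7.63% in control FGO, 20.2% to 23.1% in control L2C and 15.3% to 17.3% in knockout L2C.

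**Figure D1:**
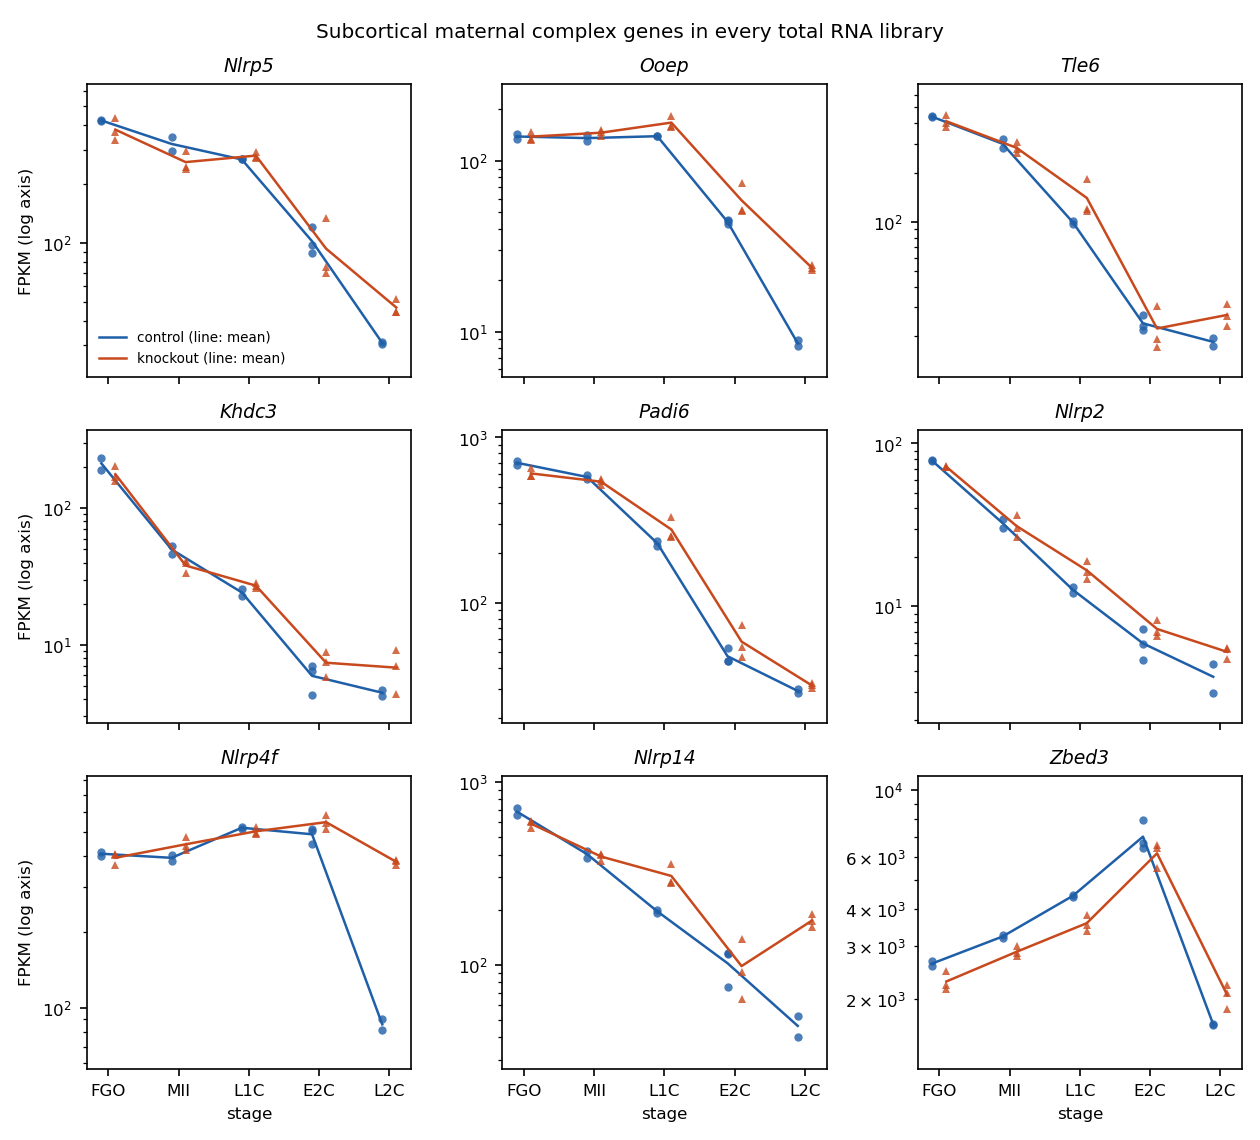
FPKM (log axis) of the 9 genes in each of the 26 total RNA libraries by stage, 1 panel a gene, with circles for control libraries, triangles for knockout libraries and lines through the group means. The genes decline at different stages, and the knockout L2C libraries of Nlrp4f (370 to 386 FPKM) and Nlrp14 (161 to 189 FPKM) lie far above the 2 control libraries.

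In control embryos, all 9 genes had fallen by the late 2-cell stage relative to FGO, with a median change of -3.87 log2 units against -0.18 over the 15184 genes tested. In this comparison 39.4% of all genes were called lower. The changes ranged from -5.29 (SE 0.22, adjusted p = 1.38e-14) for Khdc3 to -0.68 (SE 0.12, adjusted p = 2.31e-05) for Zbed3. All adjusted p-values are from limma with Benjamini-Hochberg adjustment over all genes tested, at a threshold of 0.05, and changes are differences of mean log2(FPKM + 1), where the added 1 shrinks changes of low values. The decline of the 9 did not run in step, and most genes fell at more than 1 step.

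Khdc3 and Nlrp2 had the largest falls of the 9 during maturation. Khdc3 measured 47 and 53 FPKM in control MII, down from 192 and 234 FPKM in FGO, a change of -2.07 (SE 0.15, adjusted p = 1.06e-08). Nlrp2, an NLRP gene whose maternal loss impairs the embryo, measured 30.4 and 34.6 FPKM in MII, a change of -1.24 (SE 0.13, adjusted p = 1.14e-06). Both went on falling in control embryos, to 22.8 and 25.5 FPKM for Khdc3 and 12.2 and 13.1 FPKM for Nlrp2 in L1C, and to 4.23 and 4.68 FPKM and 2.93 and 4.46 FPKM in L2C. Nlrp14 also fell at each step in control, from 384 and 419 FPKM in MII to 192 and 199 FPKM in L1C, 115, 115 and 75.3 FPKM in E2C, and 52.2 and 40.3 FPKM in L2C. At maturation 4 of the 9 fell in control (Tle6, Khdc3, Nlrp2 and Nlrp14, 4.1% of all genes lower) and Zbed3 rose (1.3% of all genes higher, and 5.39% called in either direction). In knockout 5 fell, these 4 and Nlrp5 (7.35% of all genes), and Nlrp4f and Zbed3 rose (6.49%, and 13.8% in either direction). In control the calls of Tle6 (adjusted p from 0.0613 to 0.261) and Zbed3 (adjusted p from 0.0885 to 0.206) were lost without any 1 of the 4 FGO and MII libraries. In knockout the call of Nlrp4f was lost without FGO replicate 1 (adjusted p = 0.104) or MII replicate 3 (adjusted p = 0.0968).

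Tle6 and Padi6 fell at both steps from the MII egg to the early 2-cell embryo. From MII to L1C, Tle6 went from 281 and 319 FPKM to 101 and 97.5 FPKM in control, a change of -1.58 (SE 0.15, adjusted p = 1.66e-07). Padi6 went from 559 and 594 FPKM to 236 and 221 FPKM, a change of -1.33 (SE 0.10, adjusted p = 9.13e-09). By the early 2-cell stage control libraries held 21.8 to 26.9 FPKM of Tle6 and 44.5 to 53 FPKM of Padi6, and the changes from L1C to E2C were -2.02 (SE 0.21, adjusted p = 1.12e-07) and -2.25 (SE 0.14, adjusted p = 9.51e-11). Neither library of control MII overlapped with L1C for either gene. Of the 9, 5 fell at this step in control (15.8% of all genes lower) and 5 in knockout (11% lower), the same genes in both: Tle6, Khdc3, Padi6, Nlrp2 and Nlrp14. Nlrp4f and Zbed3 rose in both (9.6% of all genes higher in control and 5.36% in knockout). In knockout, 3 of these calls rest on single libraries. Nlrp4f was not called without MII replicate 1 or 2 or L1C replicate 2 (adjusted p from 0.0762 to 0.143), and Khdc3 was not called without MII replicate 2 or L1C replicate 2 (adjusted p = 0.0636 and 0.0575). Nlrp14 was not called without MII replicate 2 or 3 or L1C replicate 2 or 3 (adjusted p from 0.0558 to 0.143).

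Ooep and Nlrp5 were first called lower in control at the step from L1C to E2C. Nlrp5 had by then gone from 423 and 424 FPKM in FGO to a mean in L1C of 63.2% of that level, with changes of -0.40 (adjusted p = 0.0868) and -0.26 (adjusted p = 0.168) at the 2 steps before, and the first of these was called in knockout, at -0.55 (SE 0.11, adjusted p = 0.00155). Ooep measured 130 and 142 FPKM in control MII, 139.4 and 139.5 FPKM in L1C, and 42.8, 44.4 and 44.7 FPKM in E2C, and its change over the last of these steps was -1.64 (SE 0.11, adjusted p = 3.33e-10). Nlrp5 measured 294 and 348 FPKM in control MII, 267.3 FPKM in both L1C libraries and 88.5, 97.6 and 120 FPKM in E2C, and its change from L1C to E2C was -1.39 (SE 0.18, adjusted p = 2.43e-06). Both went on falling from E2C to L2C in control, with changes of -2.24 (SE 0.14, adjusted p = 4.65e-11) for Ooep and -1.68 (SE 0.22, adjusted p = 1.91e-06) for Nlrp5. From L1C to E2C, 7 of the 9 fell in control (29.1% of all genes lower) and 7 in knockout (26.5% lower), all but Nlrp4f and Zbed3 in both genotypes. Zbed3 rose in both (18.1% of all genes higher in control and 15.2% in knockout).

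Nlrp4f and Zbed3 kept their RNA until the early 2-cell stage. Nlrp4f measured 382 and 405 FPKM in control MII, 514 and 522 FPKM in L1C and 445, 505 and 514 FPKM in E2C, and then 81.7 and 89.8 FPKM in control L2C. This last change was -2.49 (SE 0.11, adjusted p = 2.06e-13). Mean Zbed3 was higher at each stage up to E2C than at the one before, from 3199 and 3278 FPKM in control MII to 4399 and 4460 FPKM in L1C and 6386, 6666 and 7932 FPKM in E2C, before it fell to 1639 and 1652 FPKM in L2C. Its change from E2C to L2C was -2.08 (SE 0.14, adjusted p = 9.77e-11). From E2C to L2C, 7 of the 9 fell in control (22.5% of all genes lower, and 51.7% called in either direction), while Tle6 (-0.36, adjusted p = 0.266) and Khdc3 (-0.32, adjusted p = 0.31) were not called. Of the 7, Nlrp2 (-0.56, adjusted p = 0.0335) lost its call without control E2C replicate 1 (adjusted p = 0.0732) or 3 (adjusted p = 0.144), and with no filter (adjusted p = 0.146). Without control L2C replicate 1, which leaves 1 control L2C library, its change was -0.33. Its call was also lost with a replicate block (adjusted p = 0.117). That block gave the same change as leaving out control E2C replicate 3, -0.43, so these 2 are not separate. Whether Zbed3 RNA rose per embryo or only as a share of the library was not tested.

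In knockout embryos the fall from FGO to L2C was called for 7 of the 9 genes (38.5% of all genes lower), and the median change was -2.99 against -0.10 over all genes. The 2 not called were Nlrp4f, at -0.05 (SE 0.07, adjusted p = 0.529), and Zbed3, at -0.15 (SE 0.09, adjusted p = 0.15). With every library scaled to the same total (TPM) both were called lower, Nlrp4f at -0.34 (adjusted p = 0.00257) and Zbed3 at -0.44 (adjusted p = 0.00023). Zbed3 was also called lower with TPM computed without Gm23935 (-0.29, adjusted p = 0.0109). Mean Nlrp4f in L2C was 20.99% of its FGO mean in control and 96.3% in knockout. For Nlrp14 the shares were 6.73% and 29.5%, for Ooep 6.15% and 17.1%, and for Nlrp5 7.28% and 12.3%. Zbed3 kept 62.5% in control and 90.0% in knockout. The other 4 genes kept between 2.09% (Khdc3) and 4.73% (Nlrp2) in control, and between 3.83% (Khdc3) and 7.31% (Nlrp2) in knockout.

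**Figure D2:**
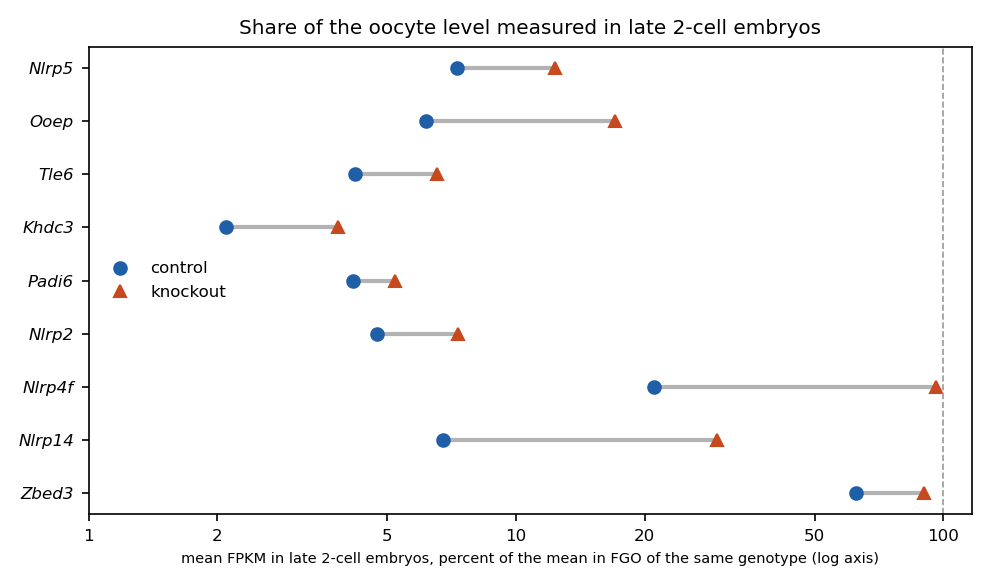
Mean FPKM in late 2-cell embryos as a percent of the mean FPKM in FGO of the same genotype (log axis) for the 9 genes, with control as circles and knockout as triangles. Every triangle lies to the right of its circle, and the distance is widest for Nlrp4f (20.99% and 96.3%) and Nlrp14 (6.73% and 29.5%).

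The difference between genotypes in the change from FGO to L2C was tested directly, as an interaction. It was called for 5 of the 9 genes, each with a smaller loss in knockout, where 16.6% of all genes were called in that direction, and for 0 in the other direction (13.2%). The differences, knockout minus control, were 2.19 (SE 0.12, adjusted p = 2.5e-10) for Nlrp4f and 2.12 (SE 0.25, adjusted p = 2.83e-06) for Nlrp14. They were 1.38 (SE 0.15, adjusted p = 1.38e-06) for Ooep, 0.75 (SE 0.24, adjusted p = 0.0247) for Nlrp5 and 0.52 (SE 0.15, adjusted p = 0.0112) for Zbed3. The genes not called had differences of 0.73 (Khdc3, adjusted p = 0.0518), 0.61 (Tle6, adjusted p = 0.111), 0.55 (Nlrp2, adjusted p = 0.0842) and 0.32 (Padi6, adjusted p = 0.221). The median over the 9 was 0.73, against 0.07 over all genes. The calls of Nlrp5 and Zbed3 were lost without control L2C replicate 1 (adjusted p = 0.0792 and 0.052) or replicate 2 (adjusted p = 0.0897 and 0.0553), and that of Nlrp5 without knockout L2C replicate 3 (adjusted p = 0.082). Without control L2C replicate 1, 3 genes were called: Ooep, Nlrp4f and Nlrp14.

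Of the 4 single steps, the last was the one with called differences. From E2C to L2C the interaction was called for 3 of the 9 genes, all with a smaller loss or a gain in knockout (9.55% of all genes higher): Nlrp14 at 1.99 (SE 0.31, adjusted p = 0.000111), Nlrp4f at 1.97 (SE 0.14, adjusted p = 4.72e-08) and Ooep at 0.98 (SE 0.19, adjusted p = 0.000846). Nlrp4f went from 513, 543 and 580 FPKM to 370, 382 and 386 FPKM in knockout, a change of -0.52 (SE 0.10, adjusted p = 0.000128). In knockout Nlrp14 went from 65, 91.3 and 138 FPKM in E2C to 161, 172 and 189 FPKM in L2C. This was a rise of 0.88 (SE 0.21, adjusted p = 0.00131), and Nlrp14 was the only one of the 9 that rose at this step in knockout (27.4% of all genes higher), while 5 fell (18.1%, and 45.5% called in either direction). All 3 knockout L2C libraries of Nlrp14 lay above all 3 knockout E2C libraries. In control the same step was a fall of Nlrp14, with a change of -1.11 (SE 0.23, adjusted p = 0.000319). At the earlier steps limma called 0 of the 9 interactions. From FGO to MII, 1 had an unadjusted p under 0.05 (Nlrp4f), as had 11.1% of all genes, and 0% of all genes were called. From MII to L1C, 7 had an unadjusted p under 0.05, as had 12.5% of all genes, and 0.198% of all genes were called, 0.158% higher and 0.0395% lower. The largest of these 7 was Nlrp14, at 0.67 (SE 0.17, adjusted p = 0.0959). Nlrp4f, also among the 7, went the other way, at -0.22 (SE 0.08, adjusted p = 0.224). From L1C to E2C, 1 had an unadjusted p under 0.05 (Nlrp14, -0.72, adjusted p = 0.137), as had 16.3% of all genes, and 3.35% of all genes were called, 1.28% higher and 2.07% lower. Without knockout E2C replicate 2 that difference was called, at -1.002 (adjusted p = 0.0327), and from E2C to L2C the difference of Nlrp5 was called as well, at 1.05 (adjusted p = 0.00893).

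Within stages, knockout and control were next compared gene by gene. In FGO, where transcription has almost ceased, limma called 0 of the 9 genes (13.9% of all genes called, 3.91% higher and 9.97% lower), and 2 had an unadjusted p under 0.05, Padi6 and Zbed3, as had 26.9% of all genes. Padi6 measured 683 and 723 FPKM in control and 580, 584 and 653 FPKM in knockout, a difference of -0.22 (SE 0.10, adjusted p = 0.164). Zbed3 measured 2581 and 2682 FPKM against 2167, 2223 and 2479 FPKM, a difference of -0.20 (SE 0.08, adjusted p = 0.089), and was called without knockout FGO replicate 2 (-0.26, adjusted p = 0.0438). Every knockout library lay below both control libraries for 4 genes, Padi6, Nlrp2, Nlrp14 and Zbed3, and 24.1% of all genes showed this. The median difference of the 9 was -0.16, against 0 over all genes.

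In MII eggs, Nlrp4f was higher and Khdc3 lower in knockout (16.8% of all genes called, 6.57% higher and 10.2% lower). Nlrp4f measured 382 and 405 FPKM in control and 424, 438 and 474 FPKM in knockout, which did not overlap, a difference of 0.18 (SE 0.05, adjusted p = 0.0253). Khdc3 measured 46.5 and 53.3 FPKM in control and 33.5, 39.5 and 41.2 FPKM in knockout, a difference of -0.38 (SE 0.13, adjusted p = 0.0456). Both calls rest on single libraries. Khdc3 was no longer called without any 1 of the 5 MII libraries (adjusted p from 0.0563 to 0.359). Nlrp4f was lost without control replicate 2 (adjusted p = 0.273) or knockout replicate 3 (adjusted p = 0.0701).

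In late 1-cell embryos, 4 genes were higher in knockout (7.6% of all genes higher) and Zbed3 was lower (10% of all genes lower). Nlrp14 measured 192 and 199 FPKM in control and 279, 282 and 356 FPKM in knockout, a difference of 0.63 (SE 0.13, adjusted p = 0.00155). Tle6 measured 97.5 and 101 FPKM against 117, 120 and 183 FPKM, a difference of 0.46 (SE 0.15, adjusted p = 0.0361). Nlrp2 was at 12.2 and 13.1 FPKM against 14.7, 16.3 and 18.9 FPKM, a difference of 0.36 (SE 0.12, adjusted p = 0.0464). Knockout libraries lay above the controls for each of these, and knockout replicate 1 was the highest for each. Ooep, at 139.4 and 139.5 FPKM against 158, 160.4 and 184 FPKM, differed by 0.26 (SE 0.08, adjusted p = 0.0275). Zbed3 measured 4399 and 4460 FPKM in control and 3386, 3549 and 3835 FPKM in knockout, a difference of -0.30 (SE 0.08, adjusted p = 0.00905). In all, every knockout library lay above every control library for 7 genes (22% of all genes) and below for Zbed3 (20.9% of all genes), and the groups overlapped for Nlrp4f. The summed oocyte markers moved with this result, at 757 to 762 FPKM in control and 832 to 1279 FPKM in knockout L1C, and their part in it was not tested. Without knockout L1C replicate 1, which had the highest value of most of these genes, Nlrp14 alone was called higher, at 0.52 (adjusted p = 0.00652). Nlrp14 alone was also called higher without control replicate 1 (0.61, adjusted p = 0.0279) or control replicate 2 (0.66, adjusted p = 0.0184), and Zbed3 was then not called lower (adjusted p = 0.0601 and 0.0869), nor without knockout replicate 2 (adjusted p = 0.0532).

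**Figure D3:**
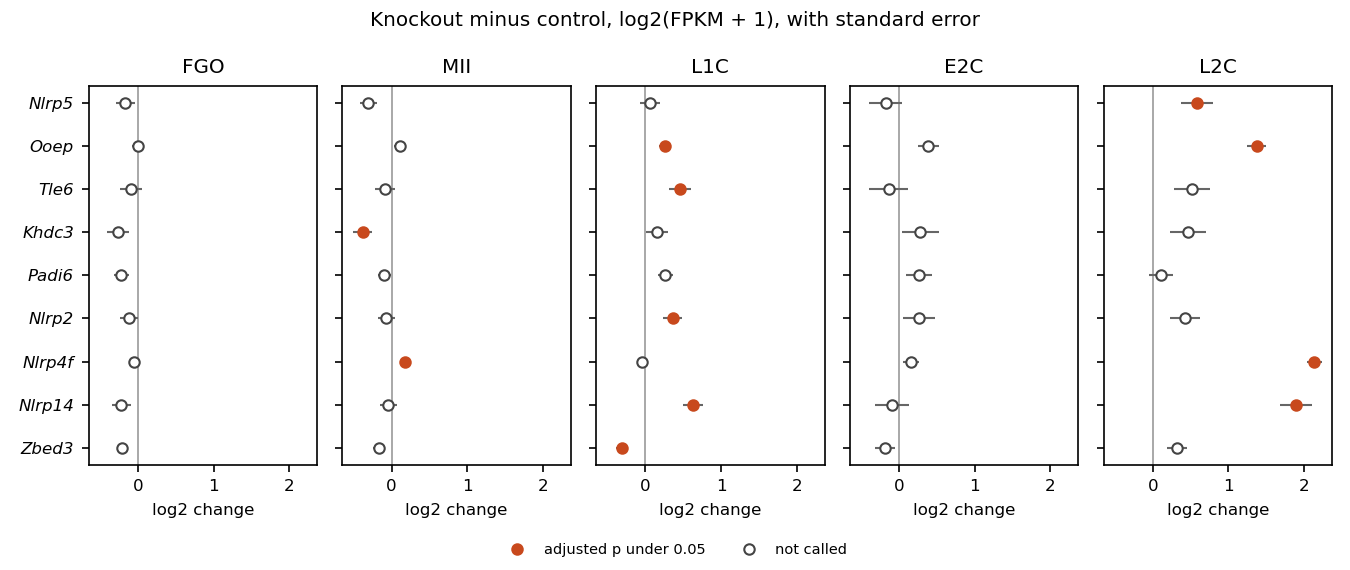
Difference between knockout and control on the log2(FPKM + 1) scale for the 9 genes at each of the 5 stages, with bars of 1 standard error and filled symbols for an adjusted p under 0.05. Filled symbols number 0 in FGO and E2C, 2 in MII and 5 in L1C (Nlrp14 the highest, at 0.63), and in L2C they are Nlrp5 (0.58), Ooep (1.37), Nlrp4f (2.13) and Nlrp14 (1.90).

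In early 2-cell embryos the libraries of a group differed more from each other than at any other stage. The median standard deviation within groups, over all genes, was 0.26 log2 units. It was 0.12 in FGO, 0.11 in MII, 0.13 in L1C and 0.21 in L2C, so a difference had to be larger in E2C to be called. By limma, 0 of the 9 genes were called (13.5% of all genes called, 6.2% higher and 7.28% lower), and 1 had an unadjusted p under 0.05, as had 25.9% of all genes. This was Ooep, at 42.8, 44.4 and 44.7 FPKM in control and 51.1, 51.2 and 73.8 FPKM in knockout, with a difference of 0.39 (SE 0.14, adjusted p = 0.0644). Ooep was the only one of the 9 whose knockout libraries all lay above the controls (14.6% of all genes), and it was called without knockout E2C replicate 1 (0.47, adjusted p = 0.0467) or replicate 3 (0.48, adjusted p = 0.0421). Knockout replicate 2 stood above the other 2 knockout libraries for several of the genes, as for Nlrp5, at 135 FPKM against 70.6 and 75.1 FPKM, and Padi6, at 73.2 FPKM against 46.9 and 54.0 FPKM. Nlrp4f, which was 4.42 times as high in knockout as in control at the next stage, here measured 445, 505 and 514 FPKM in control and 513, 543 and 580 FPKM in knockout (0.16, SE 0.10, adjusted p = 0.363).

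In late 2-cell embryos 4 of the 9 genes were higher in knockout and 0 lower, where 17% of all genes were called higher and 17.2% lower, 34.2% in either direction. Nlrp4f measured 81.7 and 89.8 FPKM in control and 370, 382 and 386 FPKM in knockout, a ratio of means of 4.42 and a difference of 2.13 (SE 0.10, adjusted p = 1.36e-11). Only 0.46% of all genes had a larger positive difference. Nlrp14 measured 40.3 and 52.2 FPKM against 161, 172 and 189 FPKM, a ratio of 3.76 and a difference of 1.90 (SE 0.21, adjusted p = 8.88e-07). Neither gene's knockout libraries came near the controls. Ooep measured 8.18 and 8.91 FPKM in control and 22.9, 23.7 and 24.4 FPKM in knockout, a ratio of 2.77 and a difference of 1.37 (SE 0.13, adjusted p = 1.05e-07). Nlrp5 measured 30.5 and 31.2 FPKM against 44.2, 44.5 and 51.6 FPKM, a ratio of 1.52 and a difference of 0.58 (SE 0.21, adjusted p = 0.0347).

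The rest of the core and its partners showed smaller differences that did not pass the test in L2C. Tle6 measured 17.5 and 19.4 FPKM in control and 22.9, 26.6 and 31.4 FPKM in knockout (0.52, SE 0.24, adjusted p = 0.106). Khdc3 measured 4.23 and 4.68 FPKM against 4.36, 6.94 and 9.11 FPKM, and its groups overlapped (0.47, SE 0.24, adjusted p = 0.137). Nlrp2 measured 2.93 and 4.46 FPKM against 4.76, 5.44 and 5.56 FPKM (0.43, SE 0.20, adjusted p = 0.106). These are the 3 genes of the set with a mean under 20 FPKM in control L2C beside Ooep. Zbed3 measured 1639 and 1652 FPKM in control and 1855, 2099 and 2231 FPKM in knockout (0.32, SE 0.13, adjusted p = 0.0572). Padi6, at 28.4 and 29.96 FPKM against 30.2, 31.6 and 32.7 FPKM, differed least (0.11, SE 0.16, adjusted p = 0.667). In all, every knockout library lay above both control libraries for 8 of the 9 genes, all but Khdc3, and 29.1% of all genes showed this. The median difference of the 9 was 0.52, against 0.03 over all genes. Nlrp5 lost its call without control L2C replicate 1 (adjusted p = 0.12) or 2 (adjusted p = 0.139) and without knockout replicate 2 (adjusted p = 0.0575) or 3 (adjusted p = 0.131). Scaling each library to the same total (TPM) moved the median of all genes to 0.12 and called 7 of the 9 higher, all but Khdc3 and Padi6. The comparisons of L2C, of the step from E2C and of the change from FGO share the L2C libraries and are not independent.

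Markers moved with the L2C result. The 7 oocyte markers, all of which reached 1 FPKM, summed to 244 to 257 FPKM in control and 412 to 494 FPKM in knockout L2C. At the stage before, they summed to 522 to 617 FPKM in control and 490 to 645 FPKM in knockout. The 4 markers of the 2-cell embryo, Zscan4c, Zscan4d, Zfp352 and Tcstv3, which are transcribed transiently when the genome of the embryo becomes active, all reached 1 FPKM and summed to 75.7 to 79.2 FPKM in control and 215 to 294 FPKM in knockout L2C. In E2C the order was the other way round, with 168 to 209 FPKM in control and 52.8 to 125 FPKM in knockout. The part of these shifts in the higher levels of Nlrp4f, Nlrp14, Ooep and Nlrp5 was not tested. Granulosa and cumulus genes summed to 36.6 to 40.6 FPKM in control and 20.8 to 31.7 FPKM in knockout L2C, up to 38.1 FPKM of it Nr5a2.

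Other oocyte NLRP genes outside the set were also higher in knockout L2C. Of 9 such genes (Nlrp4a, Nlrp4b, Nlrp4c, Nlrp4d, Nlrp4e, Nlrp4g, Nlrp9a, Nlrp9b and Nlrp9c), 8 passed the filter, and Nlrp4d was listed at 0 in all 26 libraries. All 8 were higher in knockout L2C and 0 lower (17% of all genes higher and 17.2% lower), with a median difference of 1.45 against 0.03 over all genes, and the count was 8 under each of the 3 other scalings run. Nlrp4g had the highest mean in control FGO, at 144 and 181 FPKM, though 1 of these libraries lay below both values of Nlrp4a (144.5 and 146 FPKM). It also had the largest L2C difference. It measured 23.4 to 29.5 FPKM in control and 106 to 159 FPKM in knockout L2C, a difference of 2.30 (SE 0.24, adjusted p = 3.81e-07), and shares 8.49% of its exonic words with other genes, Nlrp4f foremost. Nlrp4e values are uncertain, since 36.7% of its words are shared. In FGO, 2 of the 8 were lower in knockout, Nlrp9a and Nlrp9c, and 0 higher (9.97% of all genes lower and 3.91% higher). The interaction from FGO to L2C was called higher for 7 of the 8 (16.6% of all genes), all but Nlrp4c (0.52, adjusted p = 0.072).

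**Figure D4:**
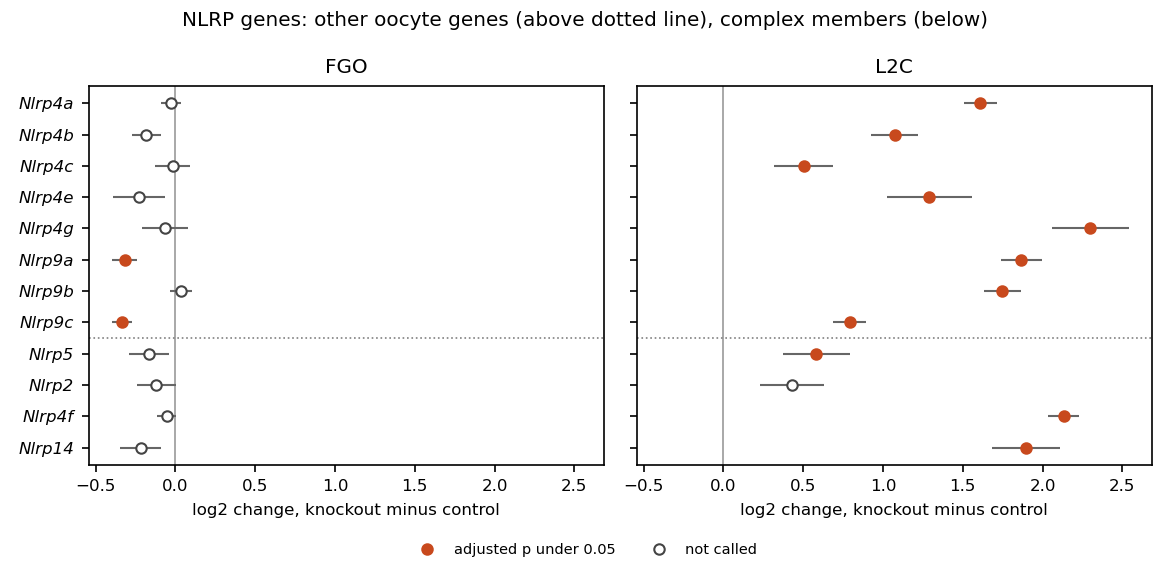
Difference between knockout and control on the log2(FPKM + 1) scale for 8 other oocyte NLRP genes (above the dotted line) and the 4 NLRP genes of the set (below it), in FGO and in L2C, with bars of 1 standard error and filled symbols for an adjusted p under 0.05. In FGO the symbols lie near 0 or slightly below it, and in L2C they range from 0.43 (Nlrp2) to 2.30 (Nlrp4g).

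Relatives by domain were called in both directions in L2C, where 17% of all genes were called higher and 17.2% lower. Among the 4 KH-domain relatives of Ooep and Khdc3, Khdc1a and Khdc1c were higher in knockout L2C and Dppa5a was lower, at a mean of 21.8 FPKM in control and 6.22 FPKM in knockout (-1.65, SE 0.37, adjusted p = 0.00173). Khdc1b, with the highest FGO level of these, had a mean of 712 FPKM in control and 644 FPKM in knockout L2C (-0.15, adjusted p = 0.308). Khdc1a and Khdc1c were also higher in knockout FGO (3.91% of all genes higher). Of 16 symbols listed for Tle, Padi and Nlrp genes known outside the oocyte, 15 were in the table and 6 passed the filter. In L2C 1 of these 6 was higher and 1 lower, which is near the shares over all genes (17% and 17.2%). Tle5 had a mean of 12.5 FPKM in control and 18.8 FPKM in knockout (0.56, SE 0.18, adjusted p = 0.0207), and Nlrp12 1.26 FPKM and 0.36 FPKM (-0.73, SE 0.13, adjusted p = 0.000182).

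Maternal-effect genes outside the complex were higher in knockout L2C for 12 of 17 (17% of all genes) and lower for 2 (17.2%), Trim28 and Smarca4, with a median difference of 0.69 against 0.03. Btg4, an adaptor of the deadenylase that clears maternal RNA and the gene of this list with the highest FGO level, had a mean of 697 FPKM in control and 1066 FPKM in knockout (0.61, SE 0.09, adjusted p = 3.19e-05). Zfp57, a zinc finger protein that protects imprints, had the largest difference, with 166 FPKM against 393 FPKM (1.24, SE 0.10, adjusted p = 1.23e-08). The differences of Nlrp4f and Nlrp14 were larger than those of all 17, and that of Ooep (1.37) slightly above that of Zfp57, though these differences from one gene to another were not tested. Before L2C the order of Btg4 was the other way round. It was called lower in knockout MII, L1C and E2C (10.2%, 10% and 7.28% of all genes lower). Zfp57 was called lower in knockout MII and L1C and higher in knockout E2C (6.2% of all genes higher).

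Across the 26 total RNA libraries, which share stage and genotype, the genes of the set were correlated to different degrees. Pearson r with the mean of the 9 standardized profiles was 0.98 for Nlrp5 and 0.96 for Ooep, between 0.88 and 0.94 for Khdc3, Nlrp14, Nlrp2, Tle6 and Padi6, 0.59 for Nlrp4f and 0.08 for Zbed3. Each of these r is raised by the part that the gene itself has in the mean. Among 6258 other named genes averaging 5 FPKM or more, the profile most like that of Nlrp5 was Fbxw24 (r = 0.99), an oocyte F-box gene. That most like Ooep was Npm2 (r = 0.99), the oocyte nucleoplasmin, and that most like Tle6 was Ccdc155 (r = 0.99). Khdc3 and Nlrp2 shared Ftdc2 as the gene most like them (r = 0.99 for both). For Padi6 it was Txndc5 (r = 0.99), for Nlrp4f G6pdx (r = 0.97), for Nlrp14 Fbxw13 (r = 0.96) and for Zbed3 Parp12 (r = 0.99). G6pdx, like Nlrp4f, had a lower mean in control L2C, 39.6 FPKM, than in knockout L2C, 142 FPKM. The mean profile was most like those of Ninj2, Uchl1, Mrnip, Cnot11 and Fbxw27, with r from 0.98 to 0.99.

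At embryonic day 6.5 the RNA of most genes of the set was low, and no effect of maternal genotype was called. The 9 genes together held 0.0013% to 0.0026% of the summed FPKM. Of the 9, 6 were below the filter in EPI and VE (Nlrp5, Khdc3, Padi6, Nlrp2, Nlrp4f and Nlrp14), and Ooep, Tle6 and Zbed3 were tested. Ooep measured 4.55 and 5.14 FPKM in control and 4.38 and 6.36 FPKM in knockout EPI, and 0.09 to 0.11 FPKM in EXE. In VE it measured 1.83 and 2.39 FPKM in control and 2.79 and 3.03 FPKM in knockout. Tle6, in turn, measured 8.86 FPKM in the control and 6.57 and 8.57 FPKM in the knockout EXE libraries. It measured 0.37 and 1.64 FPKM in control and 1.92 and 4.42 FPKM in knockout EPI. In VE it measured 2.47 and 6.9 FPKM in control and 3.98 and 5.24 FPKM in knockout, which overlapped with EXE. Zbed3 measured 2.75 and 10.5 FPKM in control and 5.62 and 8.28 FPKM in knockout VE. In EPI it measured 3.27 and 3.37 FPKM in control and 1.45 and 5.29 FPKM in knockout, which overlapped with VE. By limma 0 of the 3 were called in EPI (0% of 13376 genes called) or in VE (0.00748% called), 0 of the 3 had an unadjusted p under 0.05, and the largest difference was that of Tle6 in EPI, at 1.07 (SE 0.54, adjusted p = 1). EXE, with 1 control library, was not tested. Poly(A) and total RNA libraries were made with different kits, so levels are not compared between them.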

How the data were processed

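The authors deposited 1 table of FPKM for 26 total RNA libraries (SMART-Seq Stranded kit, per the labels' protocols) and 1 for 11 poly(A) libraries. Reads were processed with Trim Galore 0.6.6, STAR 2.7.9 and StringTie 2.1.7 on mm10, per the submitters' processing notes. The annotation and the use of strand are not given in the sources used here. The deposited column of control epiblast replicate 1 lists 1 value just below 0, so it was recorded as of another unit, and that value was set to 0. Its measure is FPKM like that of the other columns, and it was analysed as such. FPKM keeps no read counts, so the number of libraries limits the precision.

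Groups and replicate numbers come from the sample titles. Values were analysed as log2(FPKM + 1) for genes that reached 1 FPKM in 2 or more libraries. The 26 total RNA libraries were fitted together with limma 3.58.1 in R 4.3.3 (group means, 1 variance weight per stage from arrayWeights, eBayes with trend), the 8 EPI and VE libraries apart and without weights. Benjamini-Hochberg adjustment ran over all genes of a contrast, at a threshold of 0.05. The fit was tested on data simulated with normal noise of 1 standard deviation per stage. In L2C it recovered 179 of 200 changed genes, with 11 false calls. In E2C it recovered 157 of 200, with 6 false calls, and in FGO, where 0 genes were changed, it called 0. Such noise has the form that the stage weights assume, so spread that differs from gene to gene was not tested. Same-numbered EPI and VE libraries deviated together (r = 0.59 in EPI and 0.43 in VE). With 2 libraries in a group this is a single value for each lineage and is weak evidence of pairs. The EPI and VE results given are from the fit without a block. Adding a block for the replicate number changed no call of the genes of the set.

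The genes of the set and the comparison lists were chosen with earlier results of these data known. The genes named are the whole set, the gene most like each in profile over the 26 libraries and the 5 most like their mean profile (mean of at least 5 FPKM, no predicted, clone-named or Rik models), and from each list the gene highest in control FGO and the called gene with the largest L2C difference. Genes behind counts of 5 or fewer, Nlrp4e and the list genes named with overlaps were named after their values were seen. Alternatives were a pseudocount of 0.1, no filter, a minimum mean of 5 FPKM, TPM scaling with and without Gm23935 (the latter added after seeing the data), median centring, no stage weights, only the stages compared, replicate blocks and leaving out each library.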

Additional observations from a re-analysis of the deposited data

Results flagged for a closer look

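The results given here were singled out because the change over stages differed between knockout and control by the test of the difference itself. From FGO to L2C these were Nlrp4f (2.19), Nlrp14 (2.12), Ooep (1.38), Nlrp5 (0.75) and Zbed3 (0.52), all as knockout minus control on the log2(FPKM + 1) scale. From E2C to L2C they were Nlrp14 (1.99), Nlrp4f (1.97) and Ooep (0.98). Both comparisons use the same L2C libraries, where the summed oocyte markers (244 to 257 FPKM in control, 412 to 494 FPKM in knockout) and 2-cell markers (75.7 to 79.2 FPKM in control, 215 to 294 FPKM in knockout) also differed, and the part of these in the results was not tested. No group held the 4 libraries needed to look for a single library that stands apart.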

How the results depend on the processing

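Of 2787 values recomputed for the 9 genes under the alternatives, 2633 kept their side of the threshold, 100 lost a call, 54 gained one and 0 called values changed sign. Values that were not called could change sign and still be among the 2633. The E2C difference of Nlrp14, for example, was -0.09 and ran from -0.37 to 0.17 under the alternatives. The L2C calls of Nlrp4f, Nlrp14 and Ooep held under each of the 14 alternatives run for that comparison, with differences of 2.06 to 2.28, 1.71 to 2.08 and 1.32 to 1.57. Nlrp5 lost its L2C call under 6 of the 14, with no filter (adjusted p = 0.276) and with a replicate block (adjusted p = 0.0637) among them. The block gave the same difference as leaving out knockout L2C replicate 3, 0.51, so these are not separate alternatives. The number of genes lower in knockout MII (1) was 0 with a pseudocount of 0.1, a mean of at least 5 FPKM, either TPM scaling, median centring, no stage weights or only the stages compared, and the number higher (1) was 2 with median centring and 0 with no stage weights or only the stages compared. In L1C the number higher (4) was 1 with no filter or only the stages compared, and without stage weights it was 0, as was the number lower. In E2C it was 1 (Ooep) with TPM scaling, median centring or no stage weights, and in L2C (4) it was 7 with TPM scaling or no stage weights. Differences between genotypes were called higher for 3 genes from FGO to L2C (5) with no filter, which tests more genes, and for 5 from E2C to L2C (3) with no stage weights. From FGO to MII in control, the number higher (1) was 0 with TPM scaling, no stage weights or only the stages compared, and the number lower (4) was 2 with no stage weights. In knockout the number higher (2) was 1 under the same 3 settings and the number lower (5) was 2 with no stage weights. From MII to L1C in knockout, the number higher (2) was 1 with either TPM scaling, no stage weights or only the stages compared, and the number lower (5) was 3 with no stage weights. From L1C to E2C in knockout, the number higher was 2 with median centring. The cause of these shifts was not tested.

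Leaving out 1 library at a time, which in some groups leaves 1 control assumed to vary like the others, gave 0 to 1 genes lower in FGO, 0 to 1 higher and 0 to 2 lower in MII, 1 to 5 higher and 0 to 1 lower in L1C, 0 to 1 higher in E2C and 3 to 5 higher in L2C. It gave 0 higher from FGO to MII in control and 1 to 2 in knockout, 1 to 3 higher and 3 to 5 lower from MII to L1C in knockout, and, for the differences, 0 to 1 lower from L1C to E2C and 3 to 6 higher from FGO to L2C.

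No pairing of the total RNA libraries by replicate number was seen, though groups this small cannot exclude it. Same-numbered libraries deviated with correlations from -0.08 to 0.14, and in E2C they did not correlate best with each other. A replicate block within the stage left 0 genes higher and 2 lower in MII, and 5 higher and 1 lower in L1C, 0 in E2C and 3 higher in L2C. In all stages but E2C, replicate 3 exists in knockout only, so the block sets that library aside. The MII difference of Nlrp5, for example, was -0.40 both with the block and without knockout MII replicate 3. At these stages the block is therefore no check apart from leaving out that library.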
